A study of Mus musculus with 8 samples.

Results

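The comparison described here sets senescent mouse embryonic fibroblasts labelled as the control of a medium experiment (n-Sen control) against those labelled only as senescent (n-Sen), across all genes. It uses 4 of the 8 libraries of the study, 2 in each group, chosen by their labels and not by any measured value. Of 54838 gene rows shared by the deposited tables, 20215 had enough counts to be tested. Levels are given in CPM, counts scaled to the effective size of the library, for each library, replicate 1 before replicate 2.

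Mouse embryonic fibroblasts (MEFs) are connective tissue cells taken from embryos. They were grown in DMEM with 10% fetal bovine serum under 5% CO2 and reduced oxygen, per the labels, which name no strain, genotype or embryonic age. Senescence was induced in all n-Sen groups by a G2 hold with RO3306, which inhibits CDK1, followed by nutlin3a (48 h after RO3306 was withdrawn) and 14 days of BI-2536 at 100 nM. Nutlin3a frees p53 from its inhibitor MDM2, and BI-2536 blocks the mitotic kinase PLK1 and so removes cells that still divide. A last step of the protocol is 24 h in DMEM that was buffered with HEPES, adjusted in pH and supplemented with 10% serum and antibiotics. The labels attach this same protocol text to every library, and it is read here as the medium of the n-Sen control and alkaline groups, since only those carry a medium in their group labels. The pH values, and the medium of the n-Sen cells before harvest, are not given in the sources used here. Proliferating MEFs and n-Sen cells in alkaline medium, with 2 libraries each, entered the same model for the estimate of spread, and their values are quoted beside some genes. The alkaline libraries share a table with the control libraries, and the proliferating libraries share a table with the n-Sen libraries.

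Medium, deposited table and any difference in handling split these 4 libraries in the same way, so they cannot be told apart here. The labels do not state that replicates came from separate cultures, so p-values measure only the spread between these libraries, which may be technical. Total counts were 46645737 and 54183060 in n-Sen and 48801238 and 50467693 in n-Sen control. Mitochondrial transcripts took between 1.78% and 1.86% of each of these 4 libraries. The root mean square difference in log2 CPM was 0.147 between the n-Sen libraries, 0.145 between the control libraries and between 0.274 and 0.285 across the groups. In RNA from a whole culture, fewer cells of a type and less RNA per cell cannot be told apart.

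Several pathways are outlined here as background to the gene lists below. Whether medium, serum or handling acted through them in these libraries was not tested. The aryl hydrocarbon receptor (AhR) is a ligand-activated transcription factor of the cytosol that moves to the nucleus, pairs with ARNT and switches on genes such as Cyp1a1, including in response to metabolites of tryptophan found in culture media. NRF2 is kept low by KEAP1 until oxidants or electrophiles modify KEAP1, and then drives antioxidant and glutathione genes. Serum growth factors signal through the ERK kinases to immediate early genes, which need no new protein synthesis, and ERK output is damped by phosphatases of the DUSP family and by Sprouty proteins. HIF-1 is a dimer of HIF1A and ARNT that is stabilised in low oxygen and raises glycolytic genes. Senescent fibroblasts are known for the senescence-associated secretory phenotype (SASP), a mix of released cytokines, growth factors and proteases.

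The sequences below are the 250 bases before the RefSeq start of 6 genes on GRCm38.p6. The 6 genes belong to the AhR, NRF2, ERK feedback and hypoxia groups described below, changed there and hold a match of the motif marked. Other changed members of the AhR, NRF2 and hypoxia groups hold no match, and motifs were not counted for the ERK feedback group. The sequences therefore do not stand for their groups. They are written 5′ to 3′ on the strand of the gene, with matches of a motif on either strand in capitals. In Cyp1a1 (chr9:57697363-57697612, plus strand), Tiparp (chr3:65528197-65528446, plus) and Ahrr (chr13:74292332-74292581, minus) the capitals mark GCGTG, the core of the xenobiotic response element bound by AhR with ARNT. In Gclm (chr3:122245307-122245556, plus) they mark TGACNNNGC, the antioxidant response element of NRF2. In Dusp5 (chr19:53528895-53529144, plus) they mark abutting CArG boxes, the motif of serum response factor. In Bnip3 (chr7:138909507-138909756, minus) they mark a palindrome that holds ACGTG, the core of the hypoxia response element, on both strands.
Cyp1a1: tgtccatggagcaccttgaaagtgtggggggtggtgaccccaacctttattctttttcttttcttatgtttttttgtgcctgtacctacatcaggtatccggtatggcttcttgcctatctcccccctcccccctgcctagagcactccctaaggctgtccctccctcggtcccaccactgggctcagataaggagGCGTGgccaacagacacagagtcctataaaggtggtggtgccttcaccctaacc
Tiparp: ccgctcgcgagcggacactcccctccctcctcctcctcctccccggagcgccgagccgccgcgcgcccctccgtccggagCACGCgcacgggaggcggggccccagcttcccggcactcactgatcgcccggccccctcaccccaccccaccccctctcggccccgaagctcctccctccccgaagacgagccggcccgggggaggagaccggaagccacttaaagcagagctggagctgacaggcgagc
Ahrr: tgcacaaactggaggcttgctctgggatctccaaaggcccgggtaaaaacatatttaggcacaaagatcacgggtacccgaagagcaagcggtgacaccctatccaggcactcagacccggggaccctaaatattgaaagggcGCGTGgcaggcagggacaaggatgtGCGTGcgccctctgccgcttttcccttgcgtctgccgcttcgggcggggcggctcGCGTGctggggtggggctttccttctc
Gclm: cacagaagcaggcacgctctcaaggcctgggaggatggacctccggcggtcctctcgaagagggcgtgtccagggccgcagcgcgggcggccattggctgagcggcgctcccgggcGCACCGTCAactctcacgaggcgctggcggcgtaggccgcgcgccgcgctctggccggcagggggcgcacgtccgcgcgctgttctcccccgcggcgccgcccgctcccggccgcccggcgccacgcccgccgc
Dusp5: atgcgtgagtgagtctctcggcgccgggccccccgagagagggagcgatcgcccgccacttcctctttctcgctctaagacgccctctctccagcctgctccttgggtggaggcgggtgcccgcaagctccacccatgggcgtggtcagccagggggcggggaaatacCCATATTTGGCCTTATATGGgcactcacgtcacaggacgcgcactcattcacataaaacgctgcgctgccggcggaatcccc
Bnip3: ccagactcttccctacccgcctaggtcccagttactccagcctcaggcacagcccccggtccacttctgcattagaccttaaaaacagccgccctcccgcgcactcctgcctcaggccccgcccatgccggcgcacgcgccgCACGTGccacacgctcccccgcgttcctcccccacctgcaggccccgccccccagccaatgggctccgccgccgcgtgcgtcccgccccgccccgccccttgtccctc

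Motifs were counted on both strands in windows of 300 bases, from 250 before to 50 after each RefSeq start. GCGTG occurs in 32.4% of all 32851 promoter windows, and by gene in 35.2% of 27025 genes. It was found in 4 of the 6 genes of the AhR list that rose and had a window. The same letters were also found in 8 of 13 risen NRF2 genes, in 11 of 16 risen immediate early genes and in 8 of 9 hypoxia genes that fell, so this short motif was not particular to the AhR list. TGACNNNGC occurs in 14.0% of genes and was found in 7 of the 13 NRF2 genes, in 6 of the 16 immediate early genes, in 2 of the 9 hypoxia genes and in 0 of the 6 AhR genes. The CArG box occurs in 1.81% of genes and was found in 3 of the 16 immediate early genes, in 1 of the 6 AhR genes and in 0 of the other genes. ACGTG occurs in 21.8% of genes and was found in 6 of the 9 hypoxia genes, in 5 of the 16 immediate early genes, in 2 of the 13 NRF2 genes and in 0 of the AhR genes. GCGTG and ACGTG share the letters CGTG and can overlap. The shares by gene cover all genes with a window, expressed here or not, so they are no matched reference for called list members. These matches are descriptions of sequence, and no binding was measured.

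With an adjusted p under 0.05 as the threshold (edgeR, quasi-likelihood fit, Benjamini-Hochberg), 1250 genes were higher (6.18% of those tested) and 1003 lower (4.96%) in n-Sen control, together 11.1%. Most of these differences were small. Their median absolute log2 fold change was 0.37, and 64.9% of them were below 0.5. A change of at least 1 on the log2 scale was called for 204 higher (1.01%) and 63 lower genes (0.312%), 1.32% in all, and 61 of the higher but 10 of the lower ones reached 10 CPM in the higher group. For 52.0% of the genes tested, both libraries of n-Sen control lay on the same side of both n-Sen libraries. Of the 2253 genes called, all but 3 were separated in this way, so separation adds nothing to a call. The share of genes called increased with expression level, from 0.989% higher and 0.322% lower in the lowest of 5 equal bins of mean CPM to 12.6% and 11.6% in the highest. Without any 1 library, and so with fewer samples, the higher genes numbered between 731 and 816 and the lower genes between 450 and 569. Among protein-coding genes 14.2% were called, against 3.59% of lincRNAs and 3.15% of genes annotated as antisense. Counts of list members below are to be read beside the shares of 6.18% higher and 4.96% lower over all genes tested. For lists of abundant genes the 12.6% and 11.6% of the highest bin are the closer reference. The lists were chosen with earlier results of these data known.

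**Figure D1:**
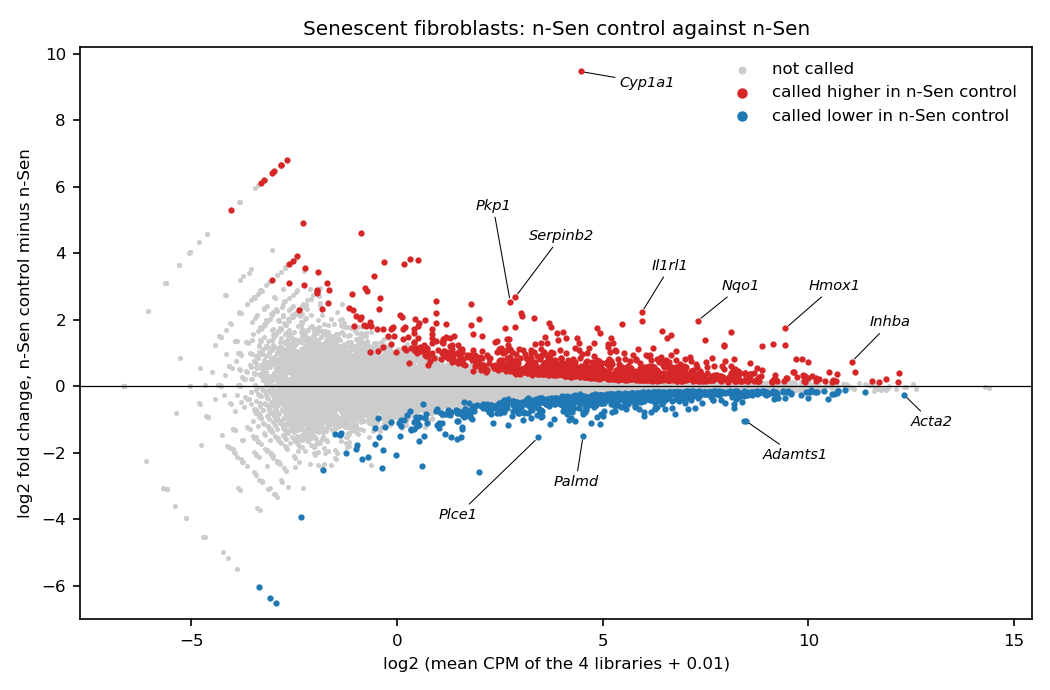
Each point is 1 of the 20215 genes tested, with the mean CPM of the 4 libraries plus 0.01 on a log2 axis and the fitted log2 fold change of n-Sen control minus n-Sen on the other axis. Red points were called higher (1250) and blue points lower (1003) at an adjusted p under 0.05, and Cyp1a1 stands apart at 9.46.

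The aryl hydrocarbon receptor pathway held the gene with the smallest p of the comparison. Of its 13 tested members 7 rose and 0 fell, with a median log2 fold change of 1.61, where 6.18% of all genes tested were called higher and the median was 0. Cyp1a1 encodes the cytochrome P450 that is the classic AhR target (chromosome 9, 57687928 to 57703824). It stood at 0.0858 and 0.0370 CPM in n-Sen, on 4 and 2 counts, and at 40.8 and 47.2 CPM in n-Sen control, on 1988 and 2349 counts. The n-Sen libraries were thus close to the detection limit and the control libraries far above it. Scaled to library totals, the ratio was 734, with a 95% counting interval from 251 to 3560 that covers counting error only and was taken on halved counts, since most low counts were even, and the fitted log2 fold change was 9.46 ± 0.218 (SE, edgeR adjusted p = 3.23e-17). Proliferating cells had 0.384 and 0.398 CPM of Cyp1a1, and the alkaline libraries had 13.2 and 13.5 CPM.

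Other AhR targets rose by less. Tiparp encodes an ADP-ribosyltransferase that restrains AhR (chromosome 3, 65528410 to 65555518). Its level was 25.3 and 25 CPM in n-Sen and 99.6 and 97.0 CPM in n-Sen control, a log2 fold change of 1.97 ± 0.0615. Ahrr, the AhR repressor (chromosome 13, 74211118 to 74292331), went from 6.69 and 7.89 to 22.9 and 21.8 CPM, a log2 fold change of 1.61 ± 0.117. Cyp1b1, another P450 of the same family (chromosome 17, 79701537 to 79715061), was abundant already in n-Sen with 327 and 337 CPM and reached 776 and 837 CPM, a log2 fold change of 1.28 ± 0.0451. For each of these genes both control libraries lay above both n-Sen libraries, and 52.0% of all genes tested were separated in 1 direction or the other.

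Aldh1a3, which makes retinoic acid, went from 12.1 and 14.8 to 45.1 and 44.8 CPM, and Serpinb2, the plasminogen activator inhibitor PAI-2, from 1.97 and 1.98 to 14.1 and 11.2 CPM. Nqo1, a quinone reductase that both AhR and NRF2 regulate, went from 59.4 and 69.9 to 250 and 256 CPM. The largest edgeR adjusted p among the 7 genes was 3.09e-09, that of Ahrr, and all 7 kept their call in each of the 14 alternative analyses. The receptor's own transcript was not called: Ahr had 26.1 and 28.4 CPM in n-Sen and 22.2 and 24.5 CPM in n-Sen control (log2 fold change -0.22 ± 0.0965, edgeR adjusted p = 0.166). Its partner Arnt had a log2 fold change of -0.12 ± 0.0633 (edgeR adjusted p = 0.304). Cyp1a2 had between 0 and 1.5 counts in the 4 libraries and was not tested. In the alkaline libraries the level was 60.9 and 60.6 CPM for Tiparp, 7.68 and 8.10 CPM for Ahrr and 93.7 and 103 CPM for Aldh1a3, so members of this group did not stand in 1 order across the 3 senescent groups.

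**Figure D2:**
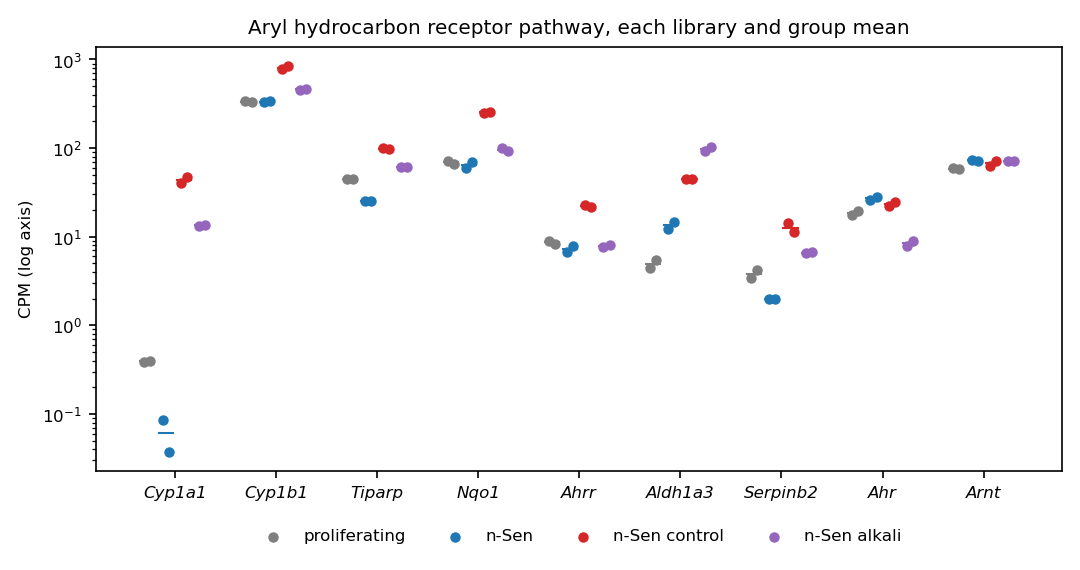
Level in CPM on a log axis of 9 genes of the AhR pathway, with 1 point per library and a bar at each group mean. The 7 genes from Cyp1a1 to Serpinb2 are higher in both n-Sen control libraries than in both n-Sen libraries, and Ahr and Arnt are not called. These 7 are all the called members of the list. The other members tested, none of them called, are left out.

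Of 32 NRF2 and antioxidant genes 17 rose and 0 fell, with a median log2 fold change of 0.26. Hmox1, heme oxygenase 1 (chromosome 8, 75093621 to 75100589), had 294 and 347 CPM in n-Sen and 1049 and 1089 CPM in n-Sen control. Its control libraries were above 3 times either n-Sen library, and the log2 fold change was 1.74 ± 0.0610 (edgeR adjusted p = 1.90e-14). Txnrd1, thioredoxin reductase 1, went from 275 and 289 to 652 and 661 CPM, a log2 fold change of 1.22 ± 0.0450. Srxn1, which repairs oxidised peroxiredoxins, went from 65.6 and 71.5 to 132 and 133 CPM. No library of n-Sen reached the lowest control library for any of these, a separation seen in 1 direction or the other for 52.0% of all genes tested.

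Genes of glutathione synthesis were among those that rose. Slc7a11, the cystine importer, went from 8.38 and 7.63 to 22.4 and 27.5 CPM, a log2 fold change of 1.64 ± 0.122. The subunits of glutamate-cysteine ligase followed: Gclc went from 47.1 and 49.4 to 92.4 and 87.1 CPM and Gclm from 70.1 and 74.2 to 154 and 144 CPM. The enzymes of the pentose phosphate pathway G6pdx and Pgd, which supply NADPH, had smaller log2 fold changes of 0.57 ± 0.0662 and 0.30 ± 0.0482. Nfe2l2, which encodes NRF2 itself, had 80.0 and 88.6 CPM in n-Sen and 106 and 115 CPM in n-Sen control, a log2 fold change of 0.40 ± 0.0627, while Keap1 was not called (-0.14). Osgin1 (1.02), Cat (0.44) and Sod3 (0.31) also rose. The glutathione S-transferases Gstm1, Gstm2 and Gstp1, the glutathione peroxidases Gpx1, Gpx3 and Gpx4 and the superoxide dismutases Sod1 and Sod2 were not called. Without any 1 library, between 13 and 16 members of this list were still called higher.

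Immediate early and serum response genes showed the largest share of risen members among the lists: 23 of 32 rose and 0 fell, with a median log2 fold change of 0.39. Egr1, a zinc finger factor that serum induces within minutes (chromosome 18, 34859823 to 34864984), had 46.8 and 37.9 CPM in n-Sen and 129 and 137 CPM in n-Sen control. That is a log2 fold change of 1.65 ± 0.0775 (edgeR adjusted p = 2.81e-12). The related Egr2 (1.57) and Egr3 (1.8) rose as well, and so did Arc, which went from 2.49 and 3.26 to 14.6 and 12.1 CPM. Among AP-1 subunits Fosl1 went from 21.1 and 22.5 to 51.2 and 56.9 CPM, Junb from 61.9 and 61.5 to 110 and 108 CPM, and Jun from 82.2 and 83.6 to 106 and 112 CPM. Fos itself, with 4.05 and 3.59 against 5.38 and 4.85 CPM, was not called (edgeR adjusted p = 0.134), and Jund and Atf3 were not called either. Ier3 (0.95), Maff (0.65), Ier2 (0.73), Klf6 (0.28) and Nr4a2 (0.71) were further members that rose. Between 18 and 22 members were called higher without any 1 library.

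Of 18 ERK feedback genes 11 rose and 2 fell. Dusp5, a nuclear phosphatase of ERK (chromosome 19, 53529109 to 53542431), had 19 and 20.1 CPM in n-Sen and 51.5 and 55.7 CPM in n-Sen control, a log2 fold change of 1.46 ± 0.0693 (edgeR adjusted p = 3.60e-12). Dusp6, its cytosolic counterpart, went from 39.5 and 41.4 to 69.0 and 73.6 CPM, and Dusp10, which acts on p38 and JNK, from 8.58 and 10.0 to 18.6 and 18.7 CPM. Phlda1 (0.78), Spry2 (0.34) and Dusp4 (0.30) were higher too. Spry1, at 39.2 and 43.7 against 33.8 and 33.5 CPM, was lower with an edgeR adjusted p of 0.0117, which was 0.210 without n-Sen replicate 2, 0.0801 without control replicate 1 and 0.0874 without control replicate 2. The count of higher members was 7 without n-Sen replicate 1 and 6 without control replicate 2, and the count of lower members was 1, 0, 0 and 1 without n-Sen replicate 1, n-Sen replicate 2, control replicate 1 and control replicate 2.

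**Figure D3:**
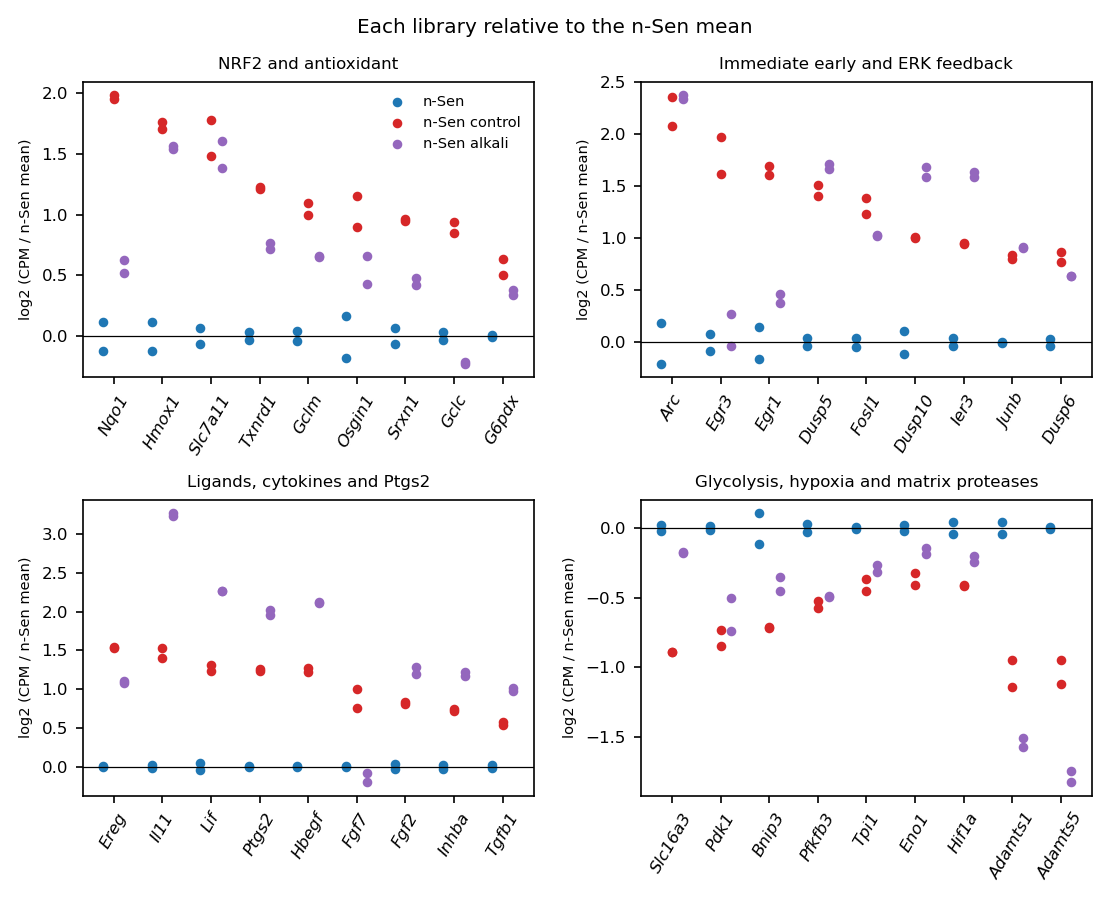
Level of each library relative to the mean of the n-Sen libraries, on a log2 axis, for 9 genes in each of 4 panels. The genes shown were selected with their direction of change known, so the common direction within a panel is not a result. For these selected genes, the n-Sen control points lie above 0 for NRF2, immediate early, ERK feedback and ligand genes. They lie below 0 for the genes in the last panel. Called genes that went the other way are left out, such as Tgfb2, Bmp4, Ccl7 and Spry1 (lower) and Bpgm, Ndrg1 and Vegfa (higher). The alkaline libraries are shown for reference.

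Released ligands rose in larger number than they fell. Among SASP growth factors 15 of 34 rose and 3 fell, with a median log2 fold change of 0.28, and among SASP cytokines and chemokines 13 of 29 rose and 1 fell, with a median of 0.51. Ligands of the EGF receptor were among them. Ereg, epiregulin, had 51.4 and 51.9 CPM in n-Sen and 150 and 149 CPM in n-Sen control, a log2 fold change of 1.54 ± 0.0535 (edgeR adjusted p = 1.90e-14). Hbegf (chromosome 18, 36504927 to 36515805) had 147 CPM in both n-Sen libraries and 342 and 354 CPM in n-Sen control, a log2 fold change of 1.24 ± 0.0452. Egf and Nrg1 were not called.

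Lif, Il11 and Clcf1, cytokines of the Il6 family, kept their call in each alternative. Lif went from 20.1 and 21.3 to 48.4 and 51.4 CPM, a log2 fold change of 1.27 ± 0.0742, and Il11 from 9.07 and 9.35 to 24.2 and 26.5 CPM, a log2 fold change of 1.46 ± 0.0878. Il6 itself was low, at 1.61 and 1.46 against 3.51 and 2.59 CPM. Its edgeR adjusted p was 0.00706, and it was 0.0722 without n-Sen replicate 2 and 0.134 without control replicate 1. Csf1, the growth factor of macrophages, was abundant and went from 679 and 696 to 916 and 943 CPM, and Il1rn, the interleukin 1 receptor antagonist, had a log2 fold change of 0.51 ± 0.0827. The chemokine Ccl7 fell from 66.2 and 65.7 to 45.5 and 43.4 CPM, a log2 fold change of -0.57 ± 0.0834. Ccl2, another chemokine of this family, was higher, at 66.7 and 69.8 against 83.2 and 86.0 CPM (edgeR adjusted p = 0.00334, and 0.0711 without n-Sen replicate 1). Without n-Sen replicate 1 the count of higher cytokines and chemokines was 8.

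Inhba, which encodes the activin A subunit (chromosome 13, 16011851 to 16031621), had 1624 and 1568 CPM in n-Sen and 2629 and 2672 CPM in n-Sen control, a log2 fold change of 0.73 ± 0.0452. Tgfb1 rose from 84.1 and 86.5 to 124 and 127 CPM while Tgfb2 fell from 192 and 183 to 113 and 123 CPM and Bmp4 fell from 61.5 and 54.6 to 32.7 and 39.9 CPM. Members of 1 superfamily thus moved in opposite directions. The fibroblast growth factors Fgf2 and Fgf7 rose, Fgf2 from 207 and 216 to 371 and 377 CPM and Fgf7 from 60.5 and 60.3 to 121 and 102 CPM, and Fgf10 was not called.

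Of 27 NF-kB targets 12 rose and 0 fell. Ptgs2, the inducible cyclooxygenase (chromosome 1, 150100031 to 150108227), had 410 and 414 CPM in n-Sen and 972 and 989 CPM in n-Sen control, a log2 fold change of 1.25 ± 0.0456 (edgeR adjusted p = 3.11e-14). Relb, Tnfaip3 and Birc3 rose by 0.78, 0.71 and 0.67 on the log2 scale, whereas Nfkbia, Rela and Sod2 were not called. Il1rl1, the receptor for the alarmin IL-33 (chromosome 1, 40429570 to 40465415), went from 22.7 and 21 to 105 and 98.7 CPM, a log2 fold change of 2.22 ± 0.0674. Tslp, a cytokine of epithelia and stroma, went from 2.94 and 3.19 to 14.1 and 12.4 CPM. Interferon response genes, by contrast, held 1 call in 35. That gene, Irf1, was at 6.22 and 6.65 against 8.99 and 8.89 CPM, and no alternative that left out a library called it, with edgeR adjusted p between 0.0764 and 0.165.

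SASP proteases and matrix regulators divided, with 12 of 33 higher and 4 lower. The urokinase gene Plau went from 185 and 188 to 311 and 319 CPM and its receptor Plaur from 97.8 and 98.8 to 181 and 177 CPM. The metalloproteinase inhibitors Timp1 and Timp3 rose by 0.38 each on the log2 scale.

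The aggrecan-degrading proteases Adamts1 and Adamts5 were the most strongly lowered of this list. Adamts1 (chromosome 16, 85793827 to 85803113) had 465 and 495 CPM in n-Sen and 218 and 249 CPM in n-Sen control, a log2 fold change of -1.04 ± 0.0556 (edgeR adjusted p = 2.30e-11). Adamts5, its neighbour on chromosome 16 at 85856173 to 85901828, had 462 and 465 against 214 and 240 CPM, a log2 fold change of -1.03 ± 0.0541. The related Adamts9, on chromosome 6 and outside this list, went from 15.1 and 14.7 to 7.96 and 8.04 CPM. In the alkaline libraries the level was 168 and 161 CPM for Adamts1 and 138 and 131 CPM for Adamts5. Mmp2, Mmp3, Mmp9, Mmp13 and Mmp14 were not called.

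Glycolysis genes fell in 12 of 25 cases (4.96% of all genes were called lower) and rose in 3, with a median log2 fold change of -0.16. The monocarboxylate transporter Slc16a3, which exports lactate with a proton (chromosome 11, 120948480 to 120960868), had 42.5 and 41.3 CPM in n-Sen and 22.6 CPM in both control libraries. That is a log2 fold change of -0.89 ± 0.0765 (edgeR adjusted p = 3.94e-08), and the alkaline libraries had 36.9 and 37.2 CPM. Eno1 fell from 1130 and 1163 to 861 and 915 CPM, Ldha from 647 and 663 to 521 and 511 CPM, Tpi1 from 270 and 269 to 209 and 197 CPM, and Pfkl from 104 and 104 to 73.7 and 80.3 CPM. Eno1 held fractional counts in all 8 libraries, so part of its level may belong to other rows. The regulators Pfkfb3 (-0.55) and Pdk1 (-0.79) were lower as well, and Gapdh, Hk1 and Hk2 were not called. Bpgm, bisphosphoglycerate mutase, went the other way, from 58.5 and 56.5 to 106 and 97.4 CPM, as did the glucose transporter Slc2a1, from 85.2 and 83.5 to 104 and 112 CPM. Without n-Sen replicate 1 the lower genes numbered 7.

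Hypoxia and HIF targets share genes with the previous list and fell in 10 of 28 cases and rose in 5. Hif1a went from 242 and 228 to 176 and 177 CPM, a log2 fold change of -0.41 ± 0.0522 (edgeR adjusted p = 9.91e-06). Bnip3, a mitophagy receptor, went from 27.6 and 32.2 to 18.2 and 18.3 CPM, P4ha1, a collagen prolyl hydroxylase subunit, from 369 and 347 to 281 and 286 CPM, and Egln1, the oxygen sensor that marks HIF1A for decay, from 73.1 and 69.0 to 57.0 and 53.5 CPM. The control libraries were below the n-Sen libraries for all of these, where 52.0% of all genes tested were separated in either direction. Ndrg1, from 7.23 and 5.78 to 15.3 and 16.9 CPM, and Pfkfb4 (0.60) were higher, and Car9, Vhl and Ddit4 were not called. Vegfa was also called higher, with the smallest edgeR adjusted p of this list (5.44e-09), and kept its call in each alternative. Without n-Sen replicate 1 the count of lower members was 6.

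Lipid genes changed in smaller number. Of 25 genes of cholesterol synthesis and uptake 9 rose and 0 fell, with a median log2 fold change of 0.05. Hmgcs1, which makes HMG-CoA, went from 96.8 and 104 to 144 and 142 CPM, a log2 fold change of 0.51 ± 0.0508. Idi1 (0.43), Hsd17b7 (0.35) and Cyp51 (0.24) rose too, whereas Sqle and Fdft1 were not called. Among 32 genes of fatty acid synthesis and lipid storage, 2 rose and 4 fell. The risen genes were Pdk4 and Acsl3, and those that fell were the lipid droplet coats Plin2 and Plin4, the carnitine transferase Cpt1a and the desaturase Scd2. Plin4 went from 17.6 and 18.6 to 7.63 and 8.71 CPM. All 6 kept their call in each alternative.

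Prostaglandin and retinoid genes held 5 higher and 6 lower members of 26. Beside Ptgs2, the constitutive cyclooxygenase Ptgs1 (0.60) and the phospholipase Pla2g4a (0.46), which frees arachidonic acid, were higher. Hpgd, which inactivates prostaglandins, fell from 13.8 and 14.0 to 8.33 and 8.26 CPM. On the retinoid side Aldh1a3, which makes retinoic acid, was higher, while Dhrs3, which reduces retinal back to retinol, fell from 35.7 and 35.9 to 15.7 and 17.5 CPM and Cyp26b1, which degrades retinoic acid, from 28.9 and 30.7 to 15.8 and 19.4 CPM. Without n-Sen replicate 1 or without control replicate 1 the lower members numbered 3.

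Wnt and BMP ligands and their antagonists held 9 higher and 5 lower members of 38. The BMP antagonist Grem1 rose from 961 and 997 to 1246 and 1182 CPM, and Fst, which traps activin, rose by 0.24 ± 0.0478 on the log2 scale. Wnt2 went from 6.90 and 5.87 to 17.3 and 18 CPM, and Wnt11 from 6.54 and 5.45 to 16.4 and 12.2 CPM. The R-spondins, which amplify Wnt signals, fell: Rspo2 went from 83.8 and 78.6 to 48.9 and 46.1 CPM and Rspo3 from 30.8 and 28.5 to 18.4 and 18.9 CPM. The Wnt target Axin2 was not called. Without control replicate 1 the lower members numbered 3.

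Contractile genes fell in 10 of 24 cases and rose in 4, mostly by little. Acta2, the smooth muscle actin of myofibroblasts, had the largest loss in CPM of all called genes, from 5477 and 5715 to 4701 and 4648 CPM, a log2 fold change of -0.26 ± 0.0411 (edgeR adjusted p = 0.000157). Myl9 (-0.26), Mylk (-0.30) and Synpo2 (-0.35) fell as well. Vcl rose by 0.22 ± 0.0398, and the filamin gene Flnc, outside this list, went from 657 and 672 to 1126 and 1214 CPM. The lower members numbered 4 without n-Sen replicate 1, 6 without n-Sen replicate 2 and 5 without control replicate 1, and the higher members 1 without n-Sen replicate 1, 2 without control replicate 1 and 1 without control replicate 2. TGF-beta and YAP targets were split, with 9 of 26 higher and 6 lower, and without n-Sen replicate 1 they numbered 5 and 3. Without n-Sen replicate 2 or control replicate 1 the lower ones numbered 3 and 2. Tgfbi went from 25.9 and 24.5 to 51.5 and 55.9 CPM and the tissue factor gene F3 from 203 and 206 to 294 and 292 CPM, whereas the inhibitory Smad6 went from 63.1 and 68.0 to 49.4 and 48.5 CPM.

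Collagens and matrix genes held 8 higher and 4 lower members of 40, and most fibrillar collagens were not called. Col5a3 was the exception by size, from 51.0 and 42.4 to 101 and 105 CPM, a log2 fold change of 1.14 ± 0.0727 (edgeR adjusted p = 3.97e-10). Tnc, tenascin C, was called higher and Fbn2 fell from 37.6 and 37.1 to 25.2 and 27.2 CPM. Col1a1, Col1a2, Col3a1 and Fn1 were not called. The higher members numbered 4 without n-Sen replicate 1 and 5 without n-Sen replicate 2, and the lower members 2 without n-Sen replicate 1, 2 without control replicate 1, 9 without control replicate 2 and 11 with no filter on low counts.

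Of 21 CDK inhibitors and senescence markers 1 rose and 4 fell, where 4.96% of all genes were called lower. The lower ones numbered 2 without n-Sen replicate 2, and the higher ones 0 without n-Sen replicate 1 or control replicate 2 and 2 with no filter, with only the 4 libraries or with a GC offset. Uhrf1, which maintains DNA methylation, fell from 3.79 and 3.69 to 1.97 and 2.37 CPM and cyclin D3 (Ccnd3) from 134 and 138 to 116 and 114 CPM, and both kept their call in each alternative. Lmna, lamin A, was the higher one, at 878 and 910 against 988 and 1010 CPM. Ccnd2, cyclin D2, fell from 1259 and 1262 to 1141 and 1113 CPM and lost its call without either n-Sen replicate or without control replicate 2. Cdkn1a, which encodes p21, had 870 and 869 CPM in n-Sen and 927 and 977 CPM in n-Sen control, a log2 fold change of 0.13 ± 0.0476 that was not called (edgeR adjusted p = 0.0881). It was called with no filter on low counts (edgeR adjusted p = 0.0233), with only the 4 libraries (0.0264) and with a GC offset (0.0405). Cdkn2a, the p16 and p19ARF locus, had 306 and 333 against 313 and 314 CPM (edgeR adjusted p = 0.830), and Lmnb1, lamin B1, 4.20 and 4.52 against 5.17 and 3.86 CPM (edgeR adjusted p = 0.884). Cdkn2b, the p15 gene, was lower at 152 and 163 against 128 and 139 CPM (edgeR adjusted p = 0.00521), a call that was lost without n-Sen replicate 2 (0.110) and without control replicate 1 (0.133). p53 targets held 7 higher and 3 lower members of 40, among them Mdm2, from 398 and 394 to 466 and 462 CPM, and Fas, from 45.3 and 44.2 to 33.3 and 31.9 CPM. They numbered 4 higher without control replicate 2 and 1 lower without control replicate 1.

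Cell cycle transcripts, low in all senescent libraries, were lower still for part of the genes. DNA replication and E2F targets fell in 9 of 45 cases and rose in 0, and genes of G2 and mitosis fell in 9 of 40 and rose in 2. Mcm2, a subunit of the replicative helicase, went from 11.4 and 9.91 to 5.93 and 6.41 CPM and Ccnb1, cyclin B1, from 4.29 and 4.17 to 1.93 and 1.53 CPM, with log2 fold changes of -0.79 ± 0.0987 and -1.29 ± 0.136. Proliferating cells had 139 and 137 CPM of Mcm2 and 136 and 137 CPM of Ccnb1. Mki67, the proliferation marker, had 9.88 and 6.37 against 7.10 and 6.78 CPM and was not called (edgeR adjusted p = 0.358). The replication genes lower numbered 5 without control replicate 1. The lower genes of G2 and mitosis numbered 2 without n-Sen replicate 1, 5 without control replicate 1, 4 without control replicate 2 and 4 when only the 4 libraries were fitted, and the higher genes 1 without n-Sen replicate 1 or either control replicate.

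The study's text names intracellular acidification as its interest, so genes of acid-base handling were examined as a list. Its members were chosen by function, but with earlier results of these data known. Of 39 pH and acid-base transport genes 3 rose and 3 fell, 7.69% in each direction. Over all genes tested the shares were 6.18% higher and 4.96% lower. Beside Slc16a3, the sodium bicarbonate cotransporter Slc4a4 fell from 14.2 and 12.0 to 8.31 and 8.30 CPM, and the sodium-proton exchanger Slc9a2 rose from 0.772 and 0.481 to 1.66 and 2.41 CPM. Slc4a7 and Car9 were not called. The count of higher members was 1 without n-Sen replicate 2 and 1 without control replicate 2.

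The V-ATPase pumps protons into lysosomes, and 3 of its 18 subunit genes fell and 0 rose. By edgeR without n-Sen replicate 2 or control replicate 1 the count was 0, and without control replicate 2 it was 1. The list of lysosome and autophagy genes, with 46 tested, held 3 higher and 10 lower members. Uvrag, from 67.7 and 67.9 to 47.6 and 50.3 CPM, and Fnip2, from 33.8 and 30.9 to 22.1 and 22.8 CPM, fell, and Sqstm1, the autophagy receptor p62, rose from 750 and 787 to 916 and 957 CPM. The lower members numbered 5 without either n-Sen replicate, 3 without control replicate 1 and 6 without control replicate 2. Glb1, the lysosomal beta-galactosidase used to stain senescent cells, was not called. Glutamine metabolism and transport held 1 higher and 4 lower members of 16, with 2 lower without n-Sen replicate 1 or control replicate 1, with 2 higher without the latter, and Glul was not called.

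Genes of the Hox clusters keep a memory of the position in the body that a fibroblast was taken from. Of the Hox A and Hox B genes 4 of 21 fell and 0 rose, and of the Hox C and Hox D genes 4 of 18 fell and 0 rose, with median log2 fold changes of -0.12 and -0.30. Hoxa7 went from 28.2 and 29.2 to 21.1 and 18.2 CPM and Hoxc6 from 44.9 and 41.6 to 32.5 and 33.4 CPM, and these were the 2 that kept their call in every alternative. The Hox A and B count was 2 without n-Sen replicate 1 and 1 without control replicate 1. The Hox C and D count was 1 without any 1 library and 2 by DESeq2. Of 57 limb and mesenchymal identity factors, a separate list, 6 were higher (10.5%, against 6.18% of all genes) and 8 lower (14.0%, against 4.96%). Without n-Sen replicate 1, n-Sen replicate 2, control replicate 1 and control replicate 2 the lower ones numbered 3, 1, 3 and 5, and the higher ones 4, 3, 3 and 4. Pitx1, a hindlimb factor, fell from 35.8 and 36.6 to 24.4 and 26.8 CPM, a log2 fold change of -0.50 ± 0.0891. Tbx4, another hindlimb factor, had 16.1 and 15.8 against 11.9 and 13 CPM and was not called (edgeR adjusted p = 0.0592), nor was the forelimb factor Tbx5. Pax1 (0.68), Tbx3 (0.58) and Irx3 (0.59) rose.

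**Figure D4:**
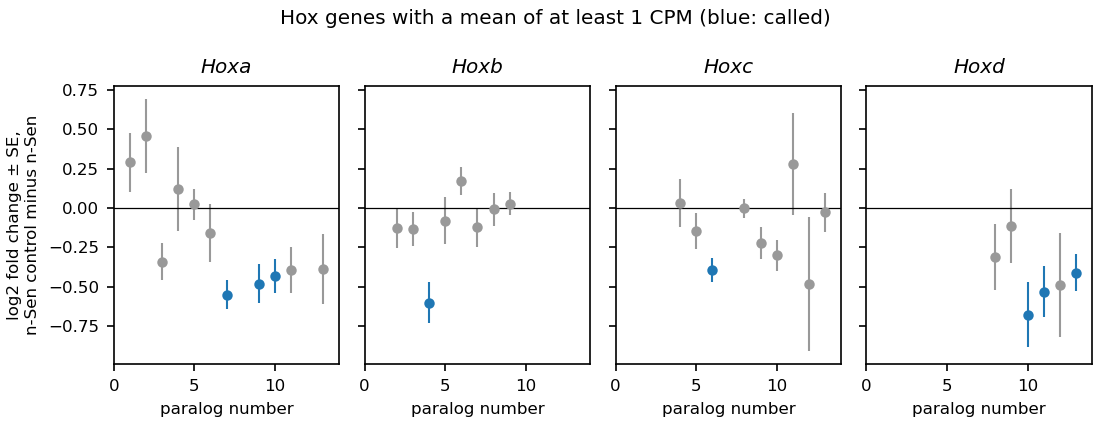
Log2 fold change of n-Sen control minus n-Sen, with its SE as the error bar, for Hox genes with a mean of at least 1 CPM, ordered by paralog number within each cluster. Blue points were called lower at an adjusted p under 0.05, and none was called higher.

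Few calls fell among genes of the ribosome, of oxidative phosphorylation and of histones. Of 51 cytosolic ribosomal proteins 0 were called higher and 1 lower. Their log2 fold change was below 0 in 47 and above 0 in 4, with a median of -0.05. Of 44 nuclear genes of oxidative phosphorylation 0 rose and 2 fell. Of 13 mitochondrial transcripts and 28 replication-dependent histones 0 were called by edgeR. DESeq2 called 4 of the ribosomal and 4 of the oxidative phosphorylation genes lower, and edgeR called 0 of the latter without any 1 library. Hspa5, of the unfolded protein response, was at 939 and 925 against 1094 and 1111 CPM. The unfolded protein response list held 2 higher of 25 (8.0%) and 1 lower (4.0%), near the shares over all genes tested (6.18% and 4.96%). Its higher members numbered 1 without any 1 library. Its lower members numbered 0 with a replicate block or without any 1 library other than control replicate 2, and 2 by DESeq2. The ATF4 amino acid response held 3 higher (9.38%) and 5 lower (15.6%) of 32, against 6.18% and 4.96% of all genes tested. The lower members of the ATF4 list numbered 2, 1 and 1 without n-Sen replicate 1, n-Sen replicate 2 and control replicate 1. Small heat shock proteins rose within a list of 24 in which 6 were higher and 2 lower: Hspb1 went from 281 and 280 to 364 and 377 CPM and Cryab from 294 and 313 to 402 and 398 CPM. Without n-Sen replicate 1 or control replicate 1 the higher ones numbered 3, and the lower ones 0 without any library but control replicate 2. Slc40a1, the iron exporter ferroportin, went from 14.0 and 10.9 to 29.5 and 25.6 CPM.

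**Figure D5:**
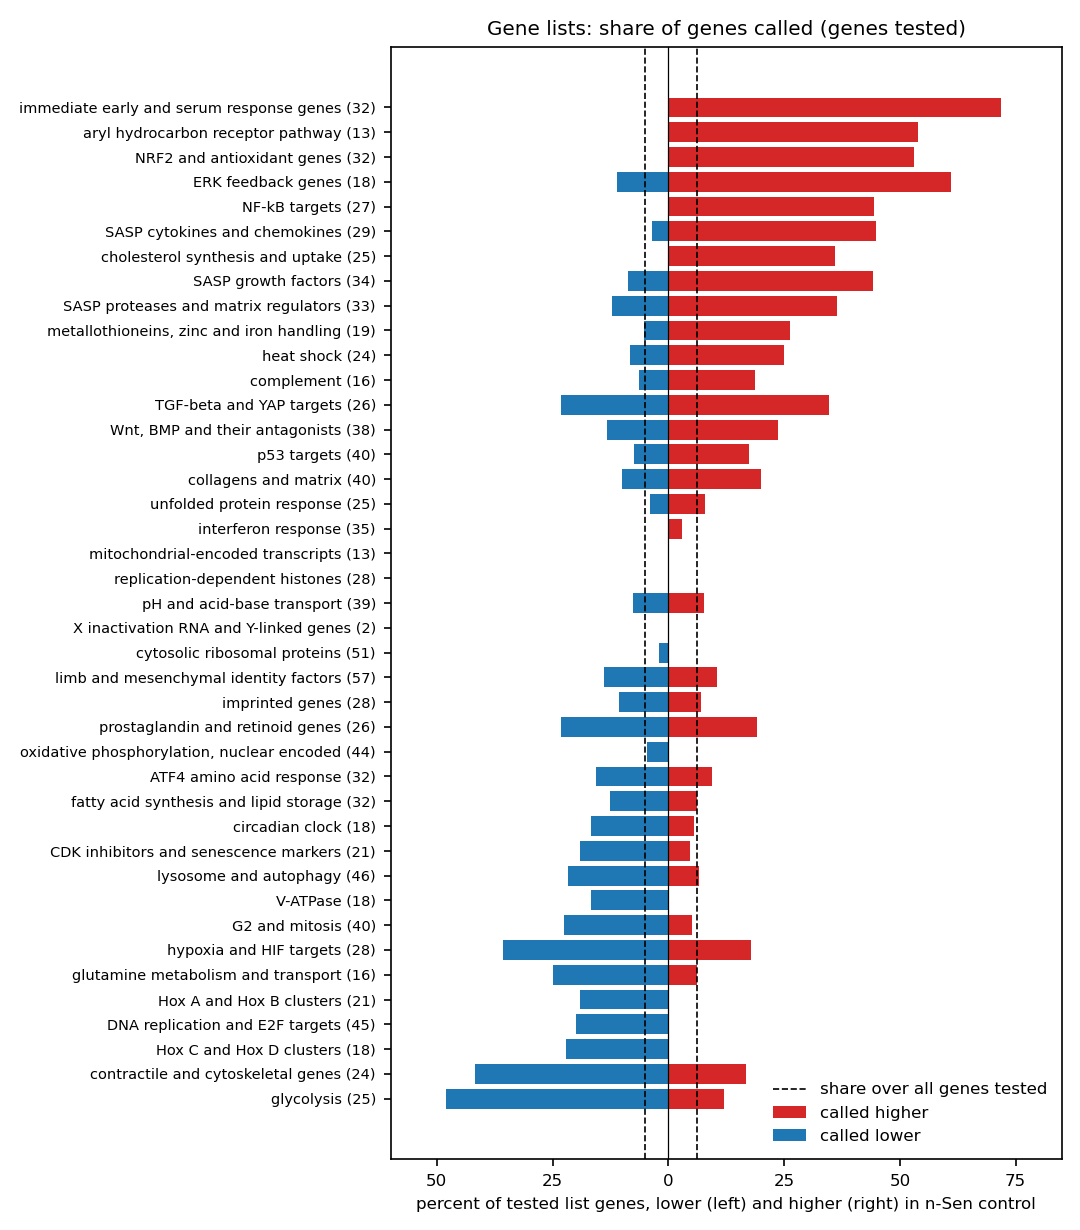
Share of the tested genes of each of the 41 pathway lists that were called higher (red, to the right) or lower (blue, to the left) in n-Sen control. The number tested is in brackets, and the marker, hyaluronan and integrin lists are not shown. Dashed lines mark the shares over all genes tested, 6.18% higher and 4.96% lower, and lists are ordered by the difference of their shares.

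Markers of other cell types were checked because a change in the mix of cells would move them. Sums of markers cover tested members only, and over all genes tested 6.18% were called higher and 4.96% lower. The 19 fibroblast markers summed to 17580 and 17430 CPM in n-Sen and 15950 and 17230 CPM in n-Sen control, with Col1a1 at 6643 and 6348 against 5699 and 6443 CPM and Vim at 4504 and 4749 against 4294 and 4467 CPM. Transcripts of the fibroblast list were thus abundant in these libraries, which does not by itself establish the identity of the cells. Macrophage markers, summed over the 24 tested, were 1340 and 1434 against 1399 and 1322 CPM, and 72.1 and 66.3 CPM in proliferating cells. Of these 24 genes 1 rose and 2 fell. The higher ones numbered 3 with a filter at 1 CPM, with only the 4 libraries or with halved counts, 2 without n-Sen replicate 2, and 0 without n-Sen replicate 1 or control replicate 1. None of the 3 called genes kept its call throughout. Lyz1, with 1.93 and 11.7 against 1.40 and 0.885 CPM, lost it by DESeq2 and without n-Sen replicate 2, control replicate 1 or control replicate 2. Cybb, which was higher, lost it without n-Sen replicate 1 or control replicate 1. Cd68 lost it without n-Sen replicate 2, control replicate 1 or control replicate 2. Of 21 other leukocyte markers only 3 had enough counts to be tested, and these summed to at most 1.0 CPM. Among the rest, Cma1 had between 4 and 10 counts, and Cd3e, Ly6g and Mpo had 0, in the 4 libraries. Endothelial markers summed to between 12.0 and 13.2 CPM in these libraries with 0 of 12 called. Epithelial markers had 30.8 and 30.1 against 40.02 and 40.6 CPM, with Epcam and Krt5 at 0. Of 11 tested, 3 were called higher, and 1 without either n-Sen replicate, without control replicate 1 or with only the 4 libraries fitted. Neural and glial markers had 373.5 CPM in both n-Sen libraries against 543 and 542 CPM, most of it Nes, which fibroblasts also express and which went from 293 and 291 to 477 and 476 CPM. Of the 12 tested neural markers 3 rose and 2 fell, with 1 lower without n-Sen replicate 1 or control replicate 1. Cartilage and bone markers had 1481 and 1502 against 1730 and 1786 CPM, and 4 of 14 rose and 0 fell, with 2 higher without n-Sen replicate 1 or control replicate 2. Among them Spp1, osteopontin, went from 834 and 829 to 1068 and 1012 CPM and Dmp1, a matrix protein of bone, from 0.386 and 0.945 to 3.00 and 3.30 CPM. Skeletal muscle markers had 177 and 197 against 219.7 and 223 CPM, with Myod1 and Myf5 at 0. Of 9 tested, 2 rose and 0 fell, and the higher ones numbered 0 without n-Sen replicate 1 or control replicate 2, 1 without control replicate 1, with RLE scaling or with a replicate block, and 3 without n-Sen replicate 2. Pericyte and smooth muscle markers had 2103 and 2041 against 1936 and 2135 CPM, and 3 of 10 rose and 4 fell. The lower ones numbered 0 without n-Sen replicate 1 or control replicate 1, and the higher ones 1 without n-Sen replicate 1 or control replicate 2. Adipocyte markers had 48.5 and 52.1 against 44.3 and 41.5 CPM, with Adipoq at 0, and 0 of 7 rose and 1 fell. Of the 19 fibroblast markers 2 rose and 1 fell, with 0 of either without n-Sen replicate 1 or control replicate 1 and 3 of each without control replicate 2. The part of any of these cells in the results above was not tested.

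The sources used here give no strand setting for the counting. Where genes lie on opposite strands of the same place, their reads may therefore not be separated. Among the genes described with values this applies to these genes with a call: Tiparp, Gclm, Dusp5, Bnip3, G6pdx, Fosl1, Junb, Jun, Phlda1, Spry1, Ereg, Tgfb2, Bmp4, Fgf2, Irf1, Timp3, Adamts9, Tpi1, Slc2a1, Hif1a, Ndrg1, Hmgcs1, Idi1, Cyp51, Plin4, Ptgs1, Fst, Wnt11, Rspo3, Mylk, Vcl, Tnc, Fbn2, Uvrag, Sqstm1, Hoxa7, Pitx1, Pax1, Tbx3, Irx3 and Cryab. Fractional counts, from reads divided among rows, were present in all 8 libraries for Gclm, Fgf2, Tnc and Eno1.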

How the data were processed

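PolyA RNA of mouse embryonic fibroblasts was measured in 8 strand-marked libraries, 2 in each of 4 groups. Per the submitters' processing notes, the tools were DESeq2 1.34.0, Subread 2.0.2 with its featureCounts program, HISAT2 2.1.0 and fastp 0.23.2, and the build was mm10. The authors deposited 2 tables of estimated counts per gene, in which between 32.7% and 33.7% of the values above 0 were fractional. The tables hold the same 54838 gene identifiers and were joined by them, and 54809 identifiers took a symbol from GENCODE release M21 (GRCm38, the build of mm10).

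Counts were rounded and fitted over all 8 libraries with edgeR 4.0.16 in R 4.3.3 (filterByExpr, TMM scaling, quasi-likelihood test, group as the only term, Benjamini-Hochberg adjustment, threshold 0.05). The common biological coefficient of variation was 0.0618 on 4 residual degrees of freedom. CPM were taken on TMM-scaled library sizes. Members and lists (41 pathway and 11 marker lists, of which 1 symbol of 1382 was unmatched) were chosen with earlier results of these data known. Genes were named by fold (15 per direction with at least 10 CPM), by difference in CPM (8 per direction), by smallest p within a list (4, and 3 of the other direction) and from a fixed set. Every other called list member, list members given only as not called, and the genes and lists of the closing section were named after values were seen. In data simulated for this comparison over 19786 genes, the test recovered 72.4% of 1.5-fold, 95.5% of 2-fold and 100% of 4-fold changes. It called 5 of 19586 unchanged genes. The simulated spread followed the fitted trend alone, without spread particular to a gene and without any difference of table or handling. Changed genes were drawn from those with at least 1 CPM in n-Sen. These rates therefore need not hold for the real libraries or for lower genes. Library depth, between 40608517 and 54183060 counts, limits precision for low genes. Same-numbered replicates did not deviate together (correlation over 11614 genes -0.005). Promoter sequences are from RefSeq on GRCm38.p6. Alternatives were DESeq2 1.42.0, RLE scaling, other filters, only the 4 libraries, a replicate block, unrounded or halved counts, a GC offset and leaving out each library. Halving was added because 68.6% of 47902 whole counts from 1 to 20 were even. Some genes that the naming rule selects are not reported here.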

Additional observations from a re-analysis of the deposited data

How the results depend on the processing

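Without any 1 library the genes called numbered between 731 and 816 higher and between 450 and 569 lower, and those with an absolute log2 fold change of 1 or more between 153 and 182 higher and between 35 and 53 lower, on fewer samples by construction. No gene called in the full fit reversed in any of the 14 alternatives. DESeq2 gave 1159 higher and 1085 lower genes, a GC offset 1196 and 1130, and only the 4 libraries 1432 and 1223. With a replicate block the counts were 1168 and 910, and replicate numbers are only names here. Of 397 named genes that were called, 205 kept the call in every alternative and 192 lost it in at least 1. Of the calls, 55.5% were higher in the full fit and 64.4% without control replicate 1.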

Other observations

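Part of the genes of hyaluronan metabolism were called higher in n-Sen control. The hyaluronan list and the integrin list were assembled after values had been seen, so their counts are descriptions only. Of 19 hyaluronan genes tested 7 rose, 0 fell and 12 were not called, with a median log2 fold change of 0.09 and between 6 and 7 called without any 1 library. Has2, the main hyaluronan synthase of fibroblasts, went from 10.9 and 11.2 CPM in n-Sen to 30.2 and 30.6 CPM in n-Sen control, a log2 fold change of 1.46 ± 0.0759. Ugdh, which makes the precursor UDP-glucuronate, went from 143 and 158 to 354 and 340 CPM. The hyaluronan receptor Cd44 went from 743 and 785 to 1225 and 1331 CPM. Ptx3, a pentraxin that cross-links hyaluronan, went from 27.3 and 24.3 to 53 and 55.6 CPM and stood at 14.5 and 11.9 CPM in the alkaline libraries.

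Integrin subunits, which anchor cells to matrix, held 6 higher and 3 lower members among 25 tested. The higher ones numbered 4 without n-Sen replicate 1 or replicate 2, and 3 without control replicate 2. The lower ones numbered 0 without n-Sen replicate 1, and 1 and 2 without control replicate 1 and replicate 2. Itgb3 went from 51.0 and 50.2 to 132 and 145 CPM, a log2 fold change of 1.46 ± 0.0599, and Itga5, the fibronectin receptor subunit, from 598 and 596 to 1029 and 1082 CPM. Itgb1 and Itgav were not called.

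Single genes outside the lists also differed. Slc20a1, a phosphate importer, went from 128 and 141 to 400 and 439 CPM. Sgk1, a serum and glucocorticoid regulated kinase, went from 93.0 and 105 to 248 and 272 CPM. Plce1, a phospholipase C, fell from 16.0 and 16.1 to 5.17 and 5.87 CPM, and Palmd, palmdelphin, from 35.3 and 32.5 to 12.4 and 11.7 CPM. Ackr3, a scavenging chemokine receptor, fell from 39.0 and 41.5 to 22.3 and 22.5 CPM, and Cavin2, a caveola coat protein, from 138 and 142 to 78.7 and 77.5 CPM.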
